A study of Mus musculus with 4 samples.

Results

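Stem cell surface and adhesion genes were followed in single cells sorted from mouse testes. The 8 genes were Itga6, Itgb1, Cd9, Tspan8, Epcam, Cdh1, Mcam and Thy1, taken by symbol out of 26041 genes, of which 23344 are listed in the count tables of both genotypes. Every gene was present in both tables, and each was read in 2 ways, by genotype of the library and by whether the cell held at least 1 transcript of Gfra1. A cell without one is called Gfra1-negative here, although shallow sequencing can miss the gene. Mcam was the member with a difference by Gfra1 status past the test in both genotypes. Its level was 298 ± 20.5 CPM (unique molecular identifiers, or UMIs, per 1000000 UMIs of a library) in Gfra1-positive and 169 ± 35.6 in Gfra1-negative Plzf +/+ cells (SD, n = 3 libraries).

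Spermatogonial stem cells lie on the basement membrane of the seminiferous tubule, which they bind through laminin-binding integrins. Tetraspanins gather integrins and other receptors into membrane domains, whereas cadherins, EPCAM and immunoglobulin-family proteins join cells to one another. Antibodies to such surface proteins have long been used to enrich stem cells from testis suspensions, because these cells are rare and the proteins can be stained without killing them. GFRA1 is the GDNF co-receptor that pairs with RET, and it marks the most undifferentiated spermatogonia.

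On the GRCm38 assembly (RefSeq), Itga6 lies at chr2:71786886-71858427, Itgb1 at chr8:128685654-128733579, Cd9 at chr6:125460266-125494760 and Tspan8 at chr10:115816817-115849893. Epcam lies at chr17:87635979-87651127, Cdh1 at chr8:106603350-106670247, Mcam at chr9:44134658-44142727 and Thy1 at chr9:44043384-44048579. All are annotated as protein-coding genes. Mcam and Thy1 lay 86.1 kb apart, and 4.51 Mb separated Mcam from Zbtb16, the gene mutated in the luxoid mice.

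Live cells (DAPI-negative) with tdTOMATO fluorescence were sorted singly into wells from testes of 4 wk old mice, and transcripts were counted from their 3′ ends. All mice carried the Eomes-iCreERt2-tdTomato knock-in allele, in which the Eomes locus drives the reporter. The 897 Plzf +/+ cells came from plates 1, 2 and 4 (317, 303 and 277 cells), and the 352 Plzf lu/lu cells, homozygous for the luxoid mutation, came from plates 3 and 4 (314 and 38 cells). Plate 4 is labelled as 1 mixed sample, and its cells took the genotype of the table that lists them. Each plate and genotype was treated as 1 library (called +/+ or lu/lu library for short), and because no animals are named, p-values measure the spread between libraries, which may be technical.

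Libraries held 2005033 to 2608702 UMIs, except the lu/lu library of plate 4, which held 254514. The sets of well barcodes are reused between plates, and 358 barcodes were found in more than 1 library. On plate 4, 5 Plzf +/+ cells lay in wells that the labels give to the other genotype. Zbtb16, which encodes PLZF, stood at 76.7, 51.8 and 72.3 CPM in the +/+ libraries of plates 1, 2 and 4 and at 18.3 and 12.1 in the lu/lu libraries of plates 3 and 4. The germ cell gene Dazl was found in 434 of 448 cells of clusters like undifferentiated spermatogonia but in 7 of 30 cells of a cluster like Sertoli cells. In all, 174 cells fell into clusters like spermatids, Sertoli cells or T and NK cells, and each fit was also run without them. Clusters that could not be named stayed in every fit. Among these, cluster 1 had Gm10801 and Gm10800 among its leading genes and a median depth of 3915.5 UMIs. It held 104 of the 314 cells of the lu/lu library of plate 3, but 3, 7 and 7 cells of the +/+ libraries. Its part in the differences between genotypes was not tested.

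The 8 genes spanned a wide range of levels. A UMI stands for 1 molecule whatever the length of its transcript, so CPM were set side by side. Capture may still differ between genes and was not measured. In +/+ libraries the mean level was highest for Mcam, at 253 ± 21.8 CPM (SD, n = 3), followed by Cd9 at 160 ± 21.8, Epcam at 135 ± 19.3 and Itgb1 at 115 ± 13.4. Itga6 stood at 69.4 ± 13.8 and Tspan8 at 36.4 ± 2.92. Thy1 and Cdh1 were the lowest, at 11.2 ± 3.81 and 10.4 ± 2.93. Cd9 overlapped Epcam, Epcam overlapped Itgb1 and Thy1 overlapped Cdh1 between libraries, whereas the libraries did not overlap at any other step of this order. In lu/lu libraries Cd9 came first at 217 ± 28.6 (SD, n = 2) and Mcam followed at 164 ± 21.0. The level of Mcam exceeded that of Cd9 in each of the 3 +/+ libraries, and the level of Cd9 exceeded that of Mcam in both lu/lu libraries. The order itself was not tested.

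**Figure D1:**
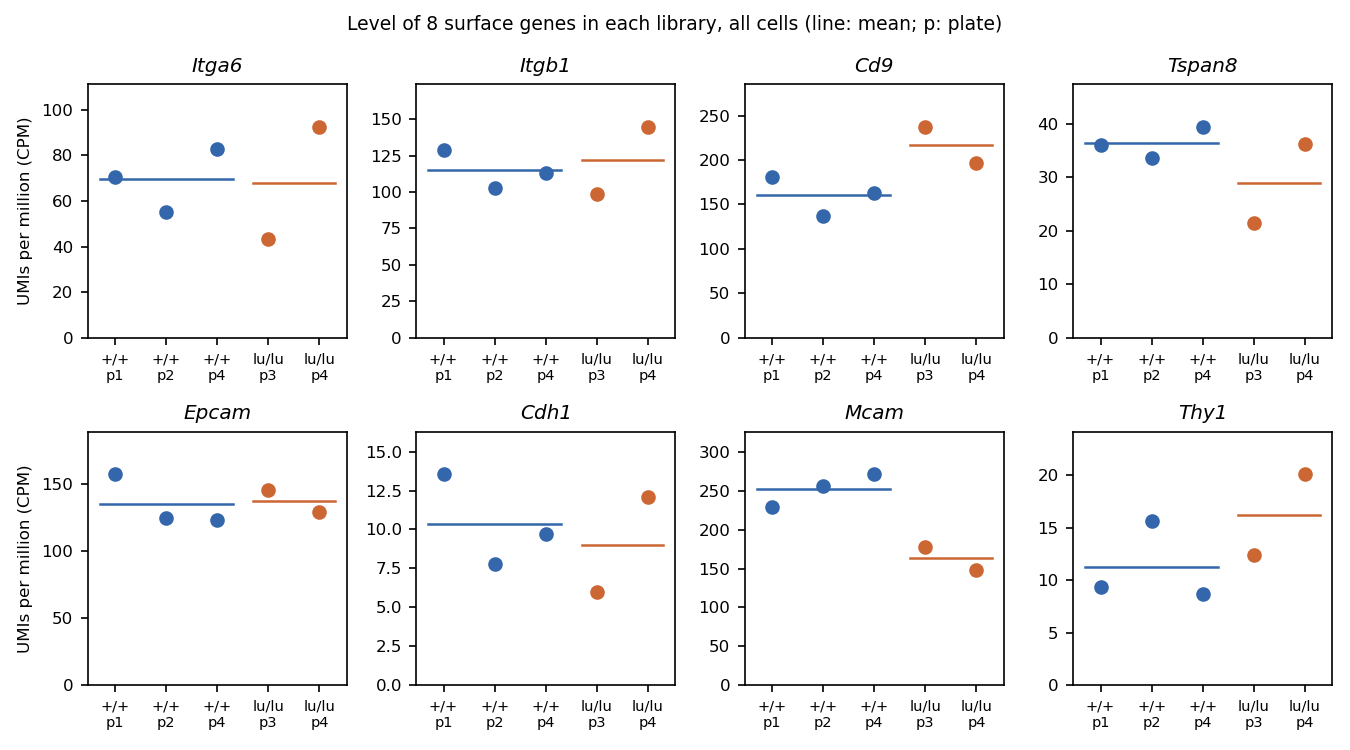
Level of each gene in CPM (vertical axis, from 0) in the 3 +/+ libraries (blue) and the 2 lu/lu libraries (orange), with a line at each genotype's mean. The Mcam points of Plzf +/+ sit between 229 and 272 and those of Plzf lu/lu at 179 and 149, whereas the points of Itga6, Itgb1 and Epcam overlap.

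By Gfra1 status, Mcam differed in every library. MCAM is an adhesion molecule of the immunoglobulin family, also known as CD146. In +/+ libraries its level in Gfra1-positive and Gfra1-negative cells was 275 and 133 CPM on plate 1, 303 and 169 on plate 2, and 315 and 204 on plate 4. In lu/lu libraries it was 257 and 90.1 on plate 3, and 195 and 94.2 on plate 4. The positive cells were higher in 3 of 3 and 2 of 2 libraries, and within each genotype no Gfra1-negative value reached a Gfra1-positive value. In the edgeR fit with library as a block, Mcam was higher in Gfra1-positive cells by a log2 fold change of 0.84 (SE 0.14, adjusted p = 0.0220) in Plzf +/+ and of 1.38 (SE 0.21, adjusted p = 0.0124) in Plzf lu/lu. It was the only called member of 8 in either genotype, where 0.302% of all genes tested were called in Plzf +/+ and 0.326% in Plzf lu/lu. The Plzf +/+ call did not pass without the libraries of plate 1 (adjusted p = 0.390) or plate 4 (0.301), with DESeq2 (0.606) or with no library block (0.112). The Plzf lu/lu call did not pass without the lu/lu library of plate 3 (0.374), without the +/+ library of plate 4 (0.0553), with DESeq2 (0.0626), with no library block (0.0631) or at matched depth (0.464). Over all settings the adjusted p of Mcam ran from 3.15e-07 to 0.606 in Plzf +/+ and from 2.62e-07 to 0.464 in Plzf lu/lu, with no change of direction.

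Gfra1-positive cells were sequenced more deeply, so detection was also compared at a matched depth. Median depth was 6140 to 6931.5 UMIs in Gfra1-positive and 4215 to 4750.5 in Gfra1-negative cells of the +/+ libraries, and 9461 against 4604 on plate 3 in Plzf lu/lu. Each cell was therefore thinned to 2000 UMIs and its Gfra1 status read again from the thinned counts. In the +/+ library of plate 1 this gave 110 positive and 197 negative cells, against 205 and 112 at full depth. Thinned negative cells thus include cells that hold Gfra1 at full depth. The effects of depth and of this regrouping cannot be told apart. At this depth a Mcam UMI was found in 52.7, 56.9 and 62.8% of Gfra1-positive and 26.4, 31.6 and 30.6% of Gfra1-negative cells in the +/+ libraries of plates 1, 2 and 4. The shares were 42.3 and 20.6% in the lu/lu library of plate 3. The lu/lu library of plate 4 had only 5 thinned Gfra1-positive cells, with 40.0% of them and 16.7% of the negative cells holding a Mcam UMI. In Plzf +/+ the Mcam difference was a mean of 32.8 percentage points at full depth and 27.9 at matched depth, with a range of 25.3 to 32.2 between libraries. A fit to the thinned sums gave a Mcam log2 fold change of 0.96 in Plzf +/+ (edgeR, adjusted p = 3.15e-07) and of 0.82 in Plzf lu/lu (adjusted p = 0.464). The Sertoli-like cluster, which should lack germ cell transcripts, held a Mcam UMI in 3 of 30 cells at a median depth of 3168 UMIs.

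Mcam was also read against the number of Gfra1 UMIs in a thinned cell. In Plzf +/+, Mcam stood at 2.06 UMIs per 10000 in the 528 cells without a Gfra1 UMI, at 4.04 in the 209 cells with 1, at 4.25 in the 67 cells with 2 and at 5.50 in the 30 cells with 3 or more. The step from none to 1 Gfra1 UMI held in each library, with the library means at 1.78 to 2.3 without and 3.33 to 4.59 with 1 Gfra1 UMI. Beyond it the library means overlapped, from 1.957 to 6.11 at 2 Gfra1 UMIs and from 3.75 to 7.22 at 3 or more. In Plzf lu/lu, Mcam stood at 1.39 in the 276 cells without and at 2.56 in the 45 cells with 1 Gfra1 UMI, and only 12 cells held more.

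Whether the Mcam difference by Gfra1 status was larger in Plzf lu/lu was tested as the difference between the status terms. That difference was 0.55 on the log2 scale (SE 0.26, edgeR, adjusted p = 0.670), and at matched depth it turned to -0.14. None of the 8 members passed this test, and 0.00815% of all genes did.

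**Figure D2:**
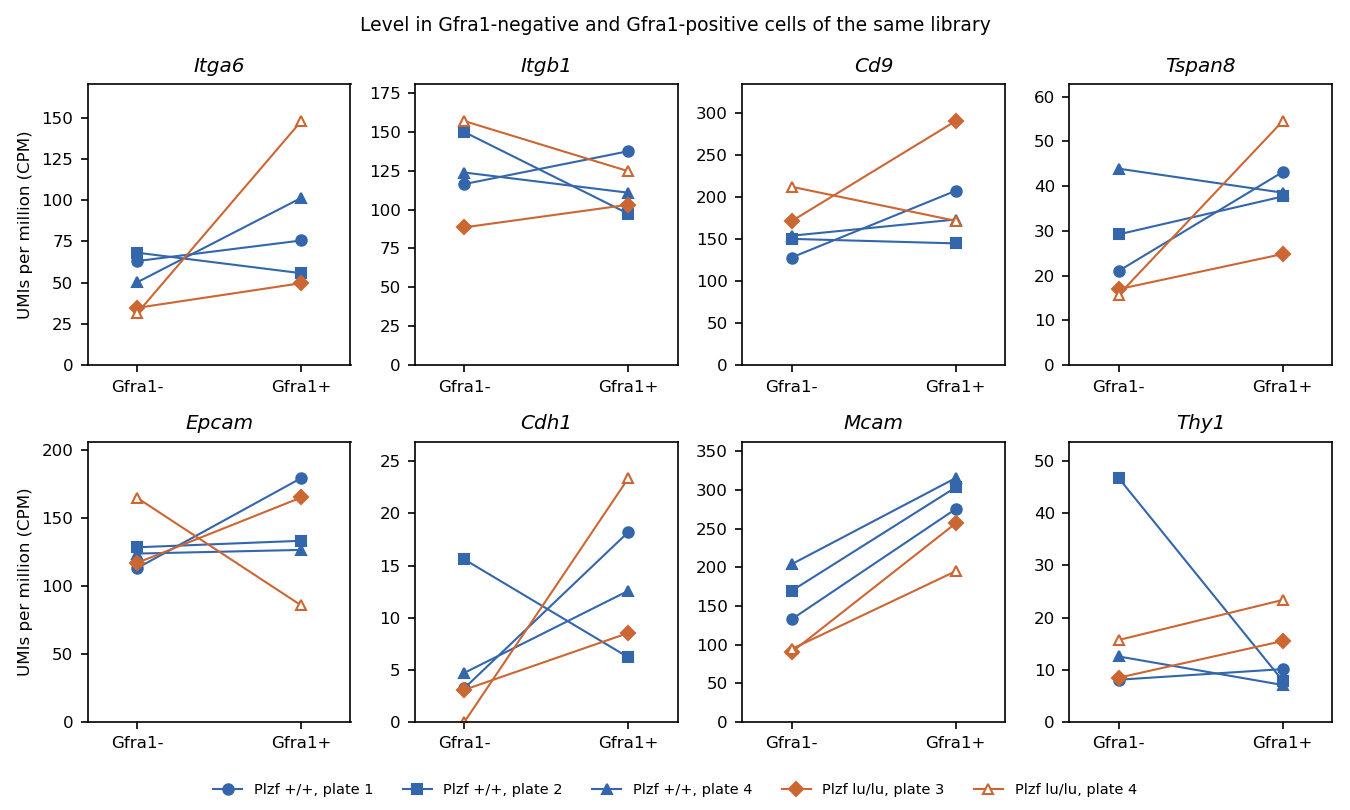
Level of each gene in CPM (vertical axis, from 0) in Gfra1-negative and Gfra1-positive cells, with a line joining the values of the same library (blue for Plzf +/+, orange for Plzf lu/lu). All 5 Mcam lines rise from left to right, with Plzf +/+ means of 169 and 298, whereas the lines of every other gene run in both directions.

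The integrin subunits did not pass the test by Gfra1 status. ITGA6 pairs with ITGB1 to form a laminin receptor, and both are used to select stem cells. Itga6 stood at 75.6, 55.7 and 101.5 CPM in Gfra1-positive and 63.1, 68.2 and 50.2 in Gfra1-negative cells of the +/+ libraries of plates 1, 2 and 4. In Plzf lu/lu the Itga6 levels were 49.7 and 34.7 on plate 3 and 148 and 31.4 on plate 4, where the first value rests on 19 UMIs. Itga6 was thus higher in Gfra1-positive cells of 4 of 5 libraries, by log2 fold changes of 0.33 (SE 0.28, adjusted p = 0.888) in Plzf +/+ and 0.94 (SE 0.42, adjusted p = 0.487) in Plzf lu/lu. The Plzf lu/lu value of Itga6 was 2.24 without the library of plate 3 and 0.53 without that of plate 4, and the Plzf +/+ value was 0.62 without the library of plate 2 and -0.063 without that of plate 4. Itgb1 stood at 138, 97.3 and 111 in Gfra1-positive and 116, 150 and 124 in Gfra1-negative Plzf +/+ cells. Its Plzf +/+ groups overlapped, with a log2 fold change of -0.18 (SE 0.19, adjusted p = 0.918). The lu/lu libraries had Itgb1 levels of 103 and 125 in positive and 88.6 and 157 in negative cells (log2 fold change 0.05, SE 0.27, adjusted p = 0.996).

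The tetraspanins did not pass the test by Gfra1 status, and their levels overlapped between Gfra1-positive and Gfra1-negative cells except for Tspan8 in Plzf lu/lu. CD9 is found on stem cells and on many other cells of the testis. Cd9 stood at 207, 145 and 173 CPM in Gfra1-positive and 128, 150 and 154 in Gfra1-negative Plzf +/+ cells (log2 fold change 0.27, SE 0.19, adjusted p = 0.841). Cd9 stood at 290 and 172 in positive and 171 and 212 in negative Plzf lu/lu cells, so plates 3 and 4 ran in opposite directions. TSPAN8 has been used to divide spermatogonia into subsets that differ in stem cell content. Tspan8 stood at 43.2, 37.7 and 38.5 in Gfra1-positive and 21.0, 29.2 and 43.9 in Gfra1-negative Plzf +/+ cells (log2 fold change 0.37, SE 0.31, adjusted p = 0.883). Its Plzf lu/lu levels were 24.8 and 54.6 in positive and 17.0 and 15.7 in negative cells (log2 fold change 0.79, SE 0.48, adjusted p = 0.650). Without the lu/lu library of plate 3 that Tspan8 value was 1.79 and at matched depth 1.94, whereas the Plzf +/+ value was 0.0097 without the library of plate 1 and 0.64 without that of plate 4.

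The epithelial adhesion genes did not pass the test either. EPCAM and E-cadherin, the product of Cdh1, hold epithelial cells together and are present on undifferentiated spermatogonia. Epcam stood at 180, 133 and 127 CPM in Gfra1-positive and 113, 129 and 124 in Gfra1-negative Plzf +/+ cells, a difference of 2.71 to 66.3 CPM (log2 fold change 0.25, SE 0.21, adjusted p = 0.884). The Plzf lu/lu levels of Epcam were 165 and 85.8 in positive and 117 and 165 in negative cells. Cdh1 was sparse, with 67 UMIs in all Plzf +/+ and 18 in all Plzf lu/lu cells. Its level was 18.2, 6.19 and 12.6 in Gfra1-positive and 3.24, 15.6 and 4.71 in Gfra1-negative Plzf +/+ cells (log2 fold change 0.66, SE 0.69, adjusted p = 0.919). Among Plzf lu/lu cells, Cdh1 stood at 8.53 and 23.4 in positive cells, at 3.08 in the negative cells of plate 3 and at 0 in the 23 negative cells of plate 4, for which the upper limit on the share of cells with a Cdh1 UMI, though not of cells expressing it, is 13.0%. The Cdh1 log2 fold change in Plzf lu/lu was 1.85 (SE 1.12, adjusted p = 0.653), with a 95% interval from -0.35 to 4.05. Without the library of plate 1 the Plzf +/+ value of Cdh1 was -0.16, and without that of plate 2 it was 1.90.

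Thy1 was the sparsest member apart from Cdh1. THY1 is a GPI-anchored protein of the immunoglobulin family, used to enrich mouse spermatogonial stem cells and also a classical T cell antigen. Thy1 stood at 10.1, 7.88 and 7.08 CPM in Gfra1-positive and 8.09, 46.7 and 12.5 in Gfra1-negative Plzf +/+ cells, so that only the negative cells of plate 2 stood apart. Across plates 3 and 4 of Plzf lu/lu it stood at 15.5 and 23.4 in positive and 8.48 and 15.7 in negative cells. The fit gave a Thy1 log2 fold change of -1.24 in Plzf +/+ (SE 0.53, adjusted p = 0.583) and of 0.80 in Plzf lu/lu (SE 0.75, adjusted p = 0.818). Of the 24 Thy1 UMIs in Gfra1-negative cells of plate 2, 21 lay in cells of the T and NK-like cluster. That cluster of 28 cells held 32 of the 111 Thy1 UMIs of all cells, in 9 cells, which is a share of 32.1% of its cells with an exact 95% interval of 15.9 to 52.4%. Without the clusters of other types the Thy1 log2 fold change in Plzf +/+ was 0.43, and without the library of plate 2 it was -0.26. The summed level of the 15 T and NK cell markers was 15.9 to 22.9 CPM in Gfra1-positive and 90.4 to 587 in Gfra1-negative Plzf +/+ cells. In the positive cells 5 of these 15 markers, among them Ptprc and Cd8a, were at 0.

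Over the 8 members, the log2 fold change by Gfra1 status was above 0 for 6 in Plzf +/+ and for 8 in Plzf lu/lu, with medians of 0.30 and 0.80. Over all genes tested, 56.0% and 50.4% lay above 0, with medians of 0.05 and 0.01. Markers of other cells were read in the same comparisons, and no Sertoli cell or spermatid marker was called. The 12 Sertoli cell markers tested had a median of -0.58 in Plzf +/+ and -2.11 in Plzf lu/lu. In Plzf lu/lu 11 of them had an unadjusted p under 0.05, beside 9.78% of all genes. The 16 spermatid markers had medians of -0.34 and -1.85. In Plzf +/+ 3 of 9 T and NK cell markers were called lower (median -5.88), beside 0.302% of all genes. So were 2 of 7 markers of differentiating spermatogonia (median -0.42). In Plzf lu/lu 0 of the 9 were called, and of the 7, 1 was called higher and 1 lower, beside 0.326%. In Plzf lu/lu the summed level of 15 Sertoli cell markers was 566 to 665 CPM in Gfra1-positive cells, with Fshr at 0, and 1026 to 2026 in Gfra1-negative cells. That of the spermatid markers was 481 to 2188 and 3006 to 14539. Without the clusters of other types the medians of the 8 members were 0.29 in Plzf +/+ and 0.61 in Plzf lu/lu, with 7 and 8 above 0. Without the +/+ library of plate 1 the Plzf +/+ median was -0.011, with 3 of 8 above 0, and without the lu/lu library of plate 3 the Plzf lu/lu median was 0.82, with 5 of 8 above 0. At full depth Itga6, Itgb1, Cd9, Epcam, Mcam and Tspan8 were each detected in a larger share of Gfra1-positive cells in 3 of 3 +/+ libraries. At matched depth the mean difference in Plzf +/+ was 7.59 percentage points for Itgb1 (4.16 to 11.1 between libraries) and 2.79 for Tspan8, with plate 2 at -0.14 and plate 4 at 7.04. It was 1.87 for Itga6 (0.734 to 3.22), 0.52 for Epcam (0.180 to 1.12) and 1.17 for Cd9, which ran from -5.25 to 6.25, against 27.9 for Mcam. Cdh1 and Thy1 lay below 0, at -0.89 and -0.59, with a larger share in positive cells of 0 and 1 of the 3 libraries. In the lu/lu library of plate 3 the matched-depth difference was 21.7 for Mcam, 7.54 for Epcam, 6.84 for Tspan8, 6.72 for Itga6 and 6.59 for Cd9. There it was 2.29 for Itgb1, 2.26 for Thy1 and -0.40 for Cdh1.

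**Figure D3:**
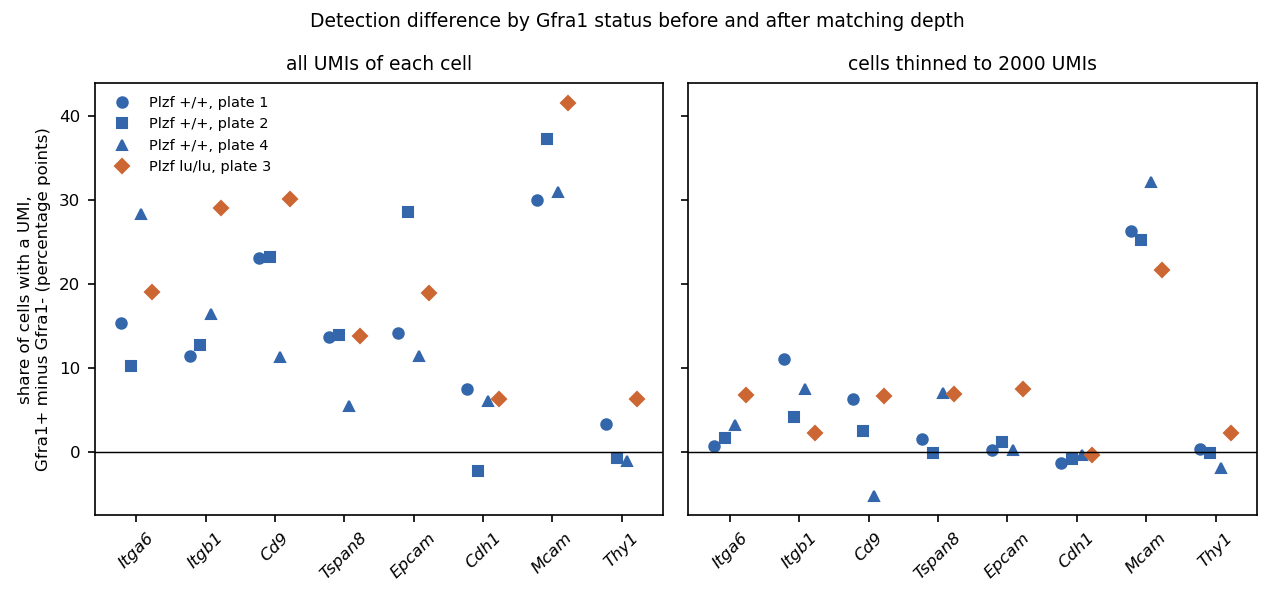
Share of cells with a UMI in Gfra1-positive minus Gfra1-negative cells, in percentage points, for each gene in the 3 +/+ libraries (blue) and the lu/lu library of plate 3 (orange), with all UMIs (left) and at 2000 UMIs per cell (right). The lu/lu library of plate 4 is left out for its 5 thinned positive cells. The Mcam points of Plzf +/+ move from a mean of 32.8 to 27.9, and those of Epcam from 18.1 to 0.52. Gfra1 status was read again at 2000 UMIs, so the groups on the left and right hold different cells.

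Between genotypes, none of the 8 members passed the test over all cells, where 0.816% of all genes did (112 of 13728, and 1943 at an unadjusted p under 0.05). Mcam and Cd9 came nearest. Mcam stood at 229, 257 and 272 CPM in the +/+ libraries of plates 1, 2 and 4 and at 179 and 149 in the lu/lu libraries of plates 3 and 4. Every Plzf +/+ value lay above both Plzf lu/lu values, and within plate 4 the levels were 272 and 149. The Mcam log2 fold change was -0.60 (SE 0.16, edgeR, adjusted p = 0.145), with a 95% interval from -0.91 to -0.29. The adjusted p of Mcam passed without the +/+ library of plate 1 (0.0138), without the clusters of other types (0.0494), without very deep cells (0.0344), with no filter on low counts (0.0318) and at matched depth (0.0233), and ran from 0.0138 to 0.698 over all settings. In these 5 settings, in the same order, 10.2, 4.88, 5.02, 2.27 and 4.11% of all genes were called. In thinned cells a Mcam UMI was found in 39.8 ± 3.54% of Plzf +/+ (SD, n = 3) and 22.5 ± 2.58% of Plzf lu/lu cells (SD, n = 2).

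Cd9 stood at 181, 137 and 163 CPM in Plzf +/+ and at 237 and 197 in lu/lu libraries. The genotypes did not overlap, with 163 against 197 within plate 4, and the log2 fold change was 0.46 (SE 0.17, adjusted p = 0.275). Without the +/+ library of plate 1 the Cd9 log2 fold change was 0.58 (adjusted p = 0.0272), in a fit that called 10.2% of all genes. Tspan8 stood at 36.0, 33.7 and 39.5 in Plzf +/+ and 21.5 and 36.2 in lu/lu libraries, so the genotypes overlapped (log2 fold change -0.52, SE 0.29, adjusted p = 0.500). At matched depth the Tspan8 log2 fold change was -1.50 (adjusted p = 0.0578), and without the lu/lu library of plate 3 it was -0.023. In thinned cells a Tspan8 UMI was found in 8.14, 10.9 and 11.6% of Plzf +/+ cells, in 3.95% on plate 3 of Plzf lu/lu and in 0 of 29 lu/lu cells of plate 4, for which the exact 95% interval reaches 11.9%. The shares of thinned cells with a Cd9 UMI were 26.3 ± 3.16% in Plzf +/+ (SD, n = 3) and 32.2 ± 6.54% in Plzf lu/lu (SD, n = 2). With a term for plate 4 the adjusted p was 0.278 for Mcam, 0.406 for Cd9 and 0.568 for Tspan8, at log2 fold changes of -0.60, 0.46 and -0.50.

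Itga6 and Itgb1 overlapped between genotypes. Itga6 stood at 70.7, 55.0 and 82.5 CPM in Plzf +/+ and 43.4 and 92.5 in Plzf lu/lu (log2 fold change -0.23, SE 0.34, adjusted p = 0.879). Itgb1 stood at 129, 103 and 113 in Plzf +/+ and 98.8 and 145 in Plzf lu/lu (log2 fold change 0.01, SE 0.21, adjusted p = 0.999, 95% interval from -0.40 to 0.42). Epcam stood at 157, 124 and 123 in Plzf +/+ and 145 and 129 in Plzf lu/lu (log2 fold change 0.04, SE 0.18, adjusted p = 0.984, interval from -0.30 to 0.39). A p that misses the threshold does not show that the genotypes were alike for these genes.

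Cdh1 stood at 13.6, 7.80 and 9.74 CPM in Plzf +/+ and 5.98 and 12.1 in lu/lu libraries (log2 fold change -0.54, SE 0.51, adjusted p = 0.740). Thy1 stood at 9.36, 15.6 and 8.72 in Plzf +/+ and 12.4 and 20.1 in lu/lu libraries (log2 fold change 0.33, SE 0.45, adjusted p = 0.882). Both genes overlapped between genotypes. Over the 8 members the median log2 fold change was -0.11 with 4 above 0, against a median of 0.00 and 50.3% above 0 over all genes. That median depended on single libraries, at 0.24 with 5 above 0 without the lu/lu library of plate 3 and -0.36 with 3 above 0 without that of plate 4. At matched depth it was -0.66, with 1 of the 6 members tested above 0.

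The share of Gfra1-positive cells was 58.1 to 66% in Plzf +/+ and 37.9 and 39.5% in lu/lu libraries, so the genotypes were also compared within each status. Among Gfra1-positive cells none of the 8 members passed (background 0.0885%). Cd9 had a log2 fold change of 0.48 there (SE 0.25, adjusted p = 0.456), which passed without the +/+ library of plate 1 (0.80, adjusted p = 0.00274), where 16.2% of all genes were called, and was -0.030 without the lu/lu library of plate 3. Mcam stood at 298 ± 20.5 CPM in Plzf +/+ (SD, n = 3) and 226 ± 43.8 in Plzf lu/lu (SD, n = 2), a log2 fold change of -0.36 (SE 0.18, adjusted p = 0.439). The median of all genes in this fit was -0.13. Among Gfra1-negative cells none of the 6 members that passed the filter on low counts was called (background 0.488%), and Thy1 and Cdh1 did not pass that filter. Mcam stood at 169 ± 35.6 in Plzf +/+ and 92.2 ± 2.89 in Plzf lu/lu (log2 fold change -0.85, SE 0.24, adjusted p = 0.199). Itga6 stood at 60.5 ± 9.27 and 33.0 ± 2.31 (log2 fold change -0.79, SE 0.33, adjusted p = 0.429) and Tspan8 had a log2 fold change of -0.87 (SE 0.47, adjusted p = 0.554). This Tspan8 value was -0.53 without the +/+ library of plate 4, -0.42 with the replicate number as a block and -1.96 at matched depth (edgeR, adjusted p = 0.0756). At matched depth the Mcam value among Gfra1-negative cells was -0.54. Fewer cells of a kind and fewer transcripts per cell cannot be told apart in these sums. The summed level of the 15 Sertoli cell markers was 520 to 587 CPM in Plzf +/+ and 849 to 1308 in lu/lu libraries over all cells, and 462 to 792 and 1026 to 2026 in Gfra1-negative cells. Of these markers 4 of 12 tested were called higher in Plzf lu/lu over all cells and 3 of 9 among Gfra1-negative cells, and their part in these differences was not tested.

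**Figure D4:**
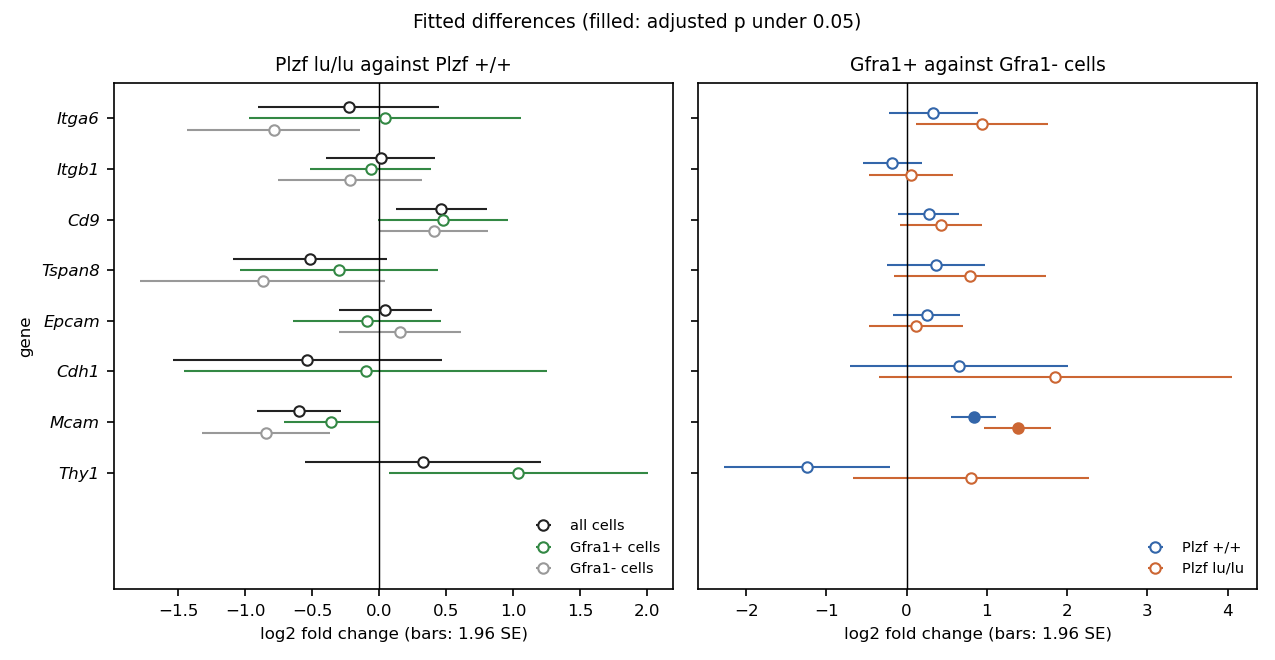
Fitted log2 fold changes of the 8 genes (horizontal axis, bars for normal 95% intervals) between genotypes (left, over all, Gfra1-positive and Gfra1-negative cells) and by Gfra1 status in each genotype (right), with filled points for an adjusted p under 0.05. The only filled points are those of Mcam by Gfra1 status, at 0.84 in Plzf +/+ and 1.38 in Plzf lu/lu.

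Across the clusters of cells, which were built without the 8 genes, detection was also read by class. The class like undifferentiated spermatogonia held 402 Plzf +/+ and 46 Plzf lu/lu cells, and the class like differentiating spermatogonia held 56 and 41, so shares are given by genotype. At 2000 UMIs per cell, Mcam was found in 48.8% of undifferentiated-like Plzf +/+ cells (exact 95% interval 43.8 to 53.9%) and in 14.5% of the differentiating-like ones (6.5 to 26.7%). The Plzf lu/lu shares of Mcam were 28.6% (15.7 to 44.6%) and 26.8% (14.2 to 42.9%), with intervals that overlap. The undifferentiated-like class was made of different clusters in each genotype. Clusters 0 and 2, with Lhx1 and T among their leading genes, held 273 of the 402 Plzf +/+ but 3 of the 46 Plzf lu/lu cells, and clusters 6 and 8 held the other 129 and 43. Of the marker list, clusters 6 and 8 had Upp1 among their leading genes, and cluster 8 also Nanos3. In Plzf +/+, Upp1 was lower in Gfra1-positive cells (log2 fold change -2.07, SE 0.31, edgeR, adjusted p = 0.00768), so the name of these clusters is less certain. Mcam was found in 58.1% (52.0 to 64.0%) of the Plzf +/+ cells of clusters 0 and 2. In clusters 6 and 8 it was found in 27.7% (19.9 to 36.7%) of Plzf +/+ and 25.6% (13.0 to 42.1%) of Plzf lu/lu cells. Epcam ran the other way in Plzf +/+, at 18.9% (15.2 to 23.2%) of undifferentiated-like and 38.2% (25.4 to 52.3%) of differentiating-like cells, against 26.2 and 14.6% in Plzf lu/lu with overlapping intervals. Tspan8 was found in 11.8% (8.74 to 15.4%) and 3.64% (0.443 to 12.5%) of the Plzf +/+ cells and in 2.38 and 4.88% of the Plzf lu/lu cells, and its intervals overlap in both genotypes. Itgb1 stood at 22.0 and 25.5% in Plzf +/+ and at 14.3 and 12.2% in Plzf lu/lu. Over both genotypes and with all UMIs, Mcam was found in 73.7 and 71.1% of these classes, at median depths of 5587.5 and 10857 UMIs. In the Sertoli-like cluster Cd9 was found in 2 of 30 cells and Cdh1 in 0 of 30, for which the upper limit on the share of cells with a UMI is 10.0%. All these shares pool the libraries of a class, and the intervals cover counting error only.

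**Figure D5:**
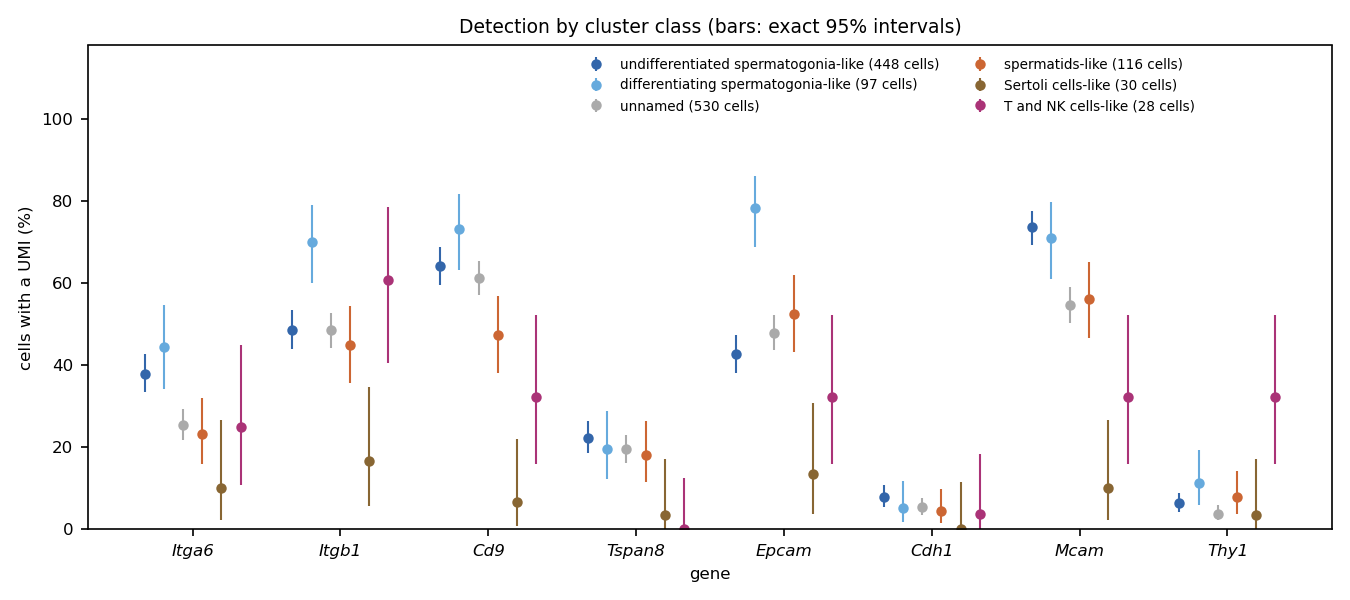
Share of cells with at least 1 UMI of each gene (vertical axis, percent, all UMIs) in 6 classes of clusters, with exact 95% intervals. Mcam stands at 73.7% in the undifferentiated-like class and 10.0% in the Sertoli-like class, and Thy1 is highest in the T and NK-like class at 32.1%.

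Single cells held few of the 8 genes at once. The mean number detected in a cell was 2.9 in Plzf +/+ and 2.59 in Plzf lu/lu, and no cell held all 8. None of the members was found in 59 of 897 Plzf +/+ and 47 of 352 Plzf lu/lu cells. At matched depth the mean was 1.66, 1.56 and 1.71 members in Gfra1-positive and 1.21, 1.22 and 1.29 in Gfra1-negative cells of the +/+ libraries of plates 1, 2 and 4. In the lu/lu library of plate 3 it was 1.52 and 0.98. These means include Mcam.

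The other genes of cell adhesion were read from 9 lists that hold none of the 8 members. Between genotypes over all cells, 0 of 8 integrin subunits, 0 of 18 integrin adaptors, 0 of 14 cadherins and catenins and 0 of 15 immunoglobulin-family genes were called. The same held for 0 of 10 genes of Epcam partners and tight junctions, 0 of 15 GPI-anchored and Ly6 genes and 0 of 14 other surface markers of spermatogonia. No gene of the 9 lists was called among Gfra1-negative cells or for the difference between the status terms. Of 12 laminin and basement membrane genes 1 was lower in Plzf lu/lu, and of 15 tetraspanins 1 was higher, beside 0.816% called of all genes in this comparison.

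The basement membrane gene was Nid1, whose product nidogen-1 links laminin to collagen IV. Nid1 stood at 93.1, 104 and 94.8 CPM in Plzf +/+ and 26.7 and 24.1 in lu/lu libraries, and fell by 1.90 on the log2 scale (SE 0.20, edgeR, adjusted p = 0.0126). Among Gfra1-positive cells it stood at 115, 123 and 122 in Plzf +/+ and 26.4 and 15.6 in Plzf lu/lu, and was 1 of 9 genes of its list called, beside 0.0885% of all genes (log2 fold change -2.3, SE 0.25, adjusted p = 0.0330). By Gfra1 status in Plzf +/+, Nid1 was the 1 called of 10 genes (0.302% of all genes), at 45.3, 68.2 and 47.1 in the negative cells (log2 fold change 1.18, SE 0.21, adjusted p = 0.0334). Without the lu/lu library of plate 3 the genotype difference over all cells had an adjusted p of 0.344, and without that of plate 4 of 0.0591. Without the +/+ libraries of plates 1, 2 and 4 it was 8.46e-05, 0.0984 and 0.0855, and with a term for plate 4 it was 0.0655. The difference by Gfra1 status did not pass without the +/+ libraries of plate 1 (0.383) or plate 4 (0.673), with DESeq2 (0.444), without the clusters of other types (0.13) or with no library block (0.0622). Among Gfra1-positive cells the genotype difference passed without the +/+ library of plate 1 (1.78e-08) but neither without any other library (0.0949 to 0.344) nor with a term for plate 4 (0.255).

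The tetraspanin was Cd63, a protein of late endosomes and of the cell surface. Cd63 stood at 35.6, 38.6 and 37.4 CPM in Plzf +/+ and 125 and 96.5 in lu/lu libraries, and rose by 1.61 on the log2 scale (SE 0.19, edgeR, adjusted p = 0.0172). In Gfra1-positive cells alone it stood at 36.4, 31.5 and 33.8 in Plzf +/+ and 121 and 78.0 in Plzf lu/lu, a difference that did not pass the test (log2 fold change 1.64, SE 0.25, adjusted p = 0.0573). It passed in 6 of 16 settings, and its log2 fold change ran from 1.2 to 2.17 over all of them. Without the clusters of other types the Cd63 log2 fold change was 1.56 (adjusted p = 0.000665), and without the lu/lu library of plate 3 it was 1.36 (adjusted p = 0.344). The adjusted p was 0.0591 without the lu/lu library of plate 4, 0.0999 and 0.124 without the +/+ libraries of plates 2 and 4, and 0.0771 with a term for plate 4.

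By Gfra1 status in Plzf lu/lu, 2 of 14 other surface markers were called, and no gene of the other 8 lists, where 0.326% of all genes were called. Ret, the signalling partner of GFRA1, stood at 143 and 93.5 CPM in Gfra1-positive and 39.3 and 47.1 in Gfra1-negative cells of plates 3 and 4 (log2 fold change 1.69, SE 0.29, adjusted p = 0.0202). Sdc4, a heparan sulphate proteoglycan of focal adhesions, stood at 666 and 826 in positive and 411 and 283 in negative cells (log2 fold change 1.03, SE 0.19, adjusted p = 0.0469). At matched depth neither passed, with log2 fold changes of 1.12 for Ret (adjusted p = 0.525) and 0.30 for Sdc4 (adjusted p = 0.863). Nor did Ret pass without the lu/lu library of plate 3 (log2 fold change 0.995) or that of plate 4 (1.87). The same held without the +/+ library of plate 4 (adjusted p = 0.0918) or the clusters of other types (0.0937), with DESeq2 (0.0752) or with no library block (0.0631). Sdc4 did not pass without the lu/lu library of plate 4 (0.292), the +/+ library of plate 4 (0.0588), the clusters of other types (0.0937) or the cells in wells of the other genotype (0.0504), with DESeq2 (0.176) or with no library block (0.0849).

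Over the 10 sums of library and Gfra1 status, 4600 genes with a mean of at least 50 CPM were ranked by the correlation of their log2 level with that of each member. Dusp6, a phosphatase induced by ERK signalling, was most like Mcam (Pearson r = 0.964), followed by Fgd6 (r = 0.954). Dusp6 had mean levels of 111 CPM in Gfra1-positive and 52.2 in Gfra1-negative sums. Itga6 was most like Tnks2 (r = 0.965), Itgb1 most like Mastl (r = 0.880) and Cd9 most like Txnrd1 (r = 0.853). Tspan8 was most like Rsrc2 (r = 0.935), Epcam most like Mis18a (r = 0.903), Cdh1 most like Pctp (r = 0.964) and Thy1 most like Cd2bp2 (r = 0.901). These values are descriptions only, since sums of a library share its plate and the sums of a status share its depth.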

How the data were processed

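Single-cell libraries of 5 plate and genotype combinations were analysed. Per the labels, reads were demultiplexed (bcl2fastq 2.18.0.12, Picard 2.9.3), aligned to GRCm38 with STAR 2.5.4a and collapsed to UMIs. The authors deposited 1 table of raw UMI counts per genotype, without normalization, and each cell's name holds a well barcode and a library suffix, which was matched to the sample titles to give its plate. UMIs were summed per library, or per library and Gfra1 status (at least 1 Gfra1 UMI), and fitted with edgeR 4.0.16 in R 4.3.3 (filterByExpr, TMM, robust quasi-likelihood test, Benjamini-Hochberg adjusted p under 0.05 over all genes tested). The study tested single cells as replicates, which was not followed. Gfra1 was left out of the status fits. Levels are TMM-scaled UMIs per 1000000 (CPM), except for sums over marker lists, which are not TMM-scaled. SE was taken as the log2 fold change over the square root of the F statistic. Ranges of 1.96 SE on either side are narrower than 95% intervals, and some leave out 0 where the unadjusted p exceeds 0.05. An exact permutation test of 3 against 2 libraries cannot go below 0.1 and was not used.

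Cells were thinned to 2000 UMIs (seed 1), which left 1167 of 1249 cells. Cells were clustered with scanpy 1.11.5 and leidenalg 0.10.2 (2000 variable genes without the 8 members, 20 components, 15 neighbors, resolution 1.5) and clusters were named from marker lists. No doublet caller was run, and 24 cells over 4 times their genotype's median depth were left out as an alternative. Depth ranged from 612 to 95069 UMIs per cell. Intervals are exact Clopper-Pearson at 95%, a count of 0 carries a limit of 3 cells, and both cover counting error only. The alternatives were DESeq2 1.42.0, its size factors, no filter on low counts, each library left out, clusters of other types left out, thinning, Gfra1 at 2 UMIs, the replicate block and no library block. Leaving out the cells in wells of the other genotype and a term for plate 4 were added after seeing the data. Scripts were tested on simulated data. The named genes were all 8 members, the called genes of 9 adhesion lists (at most 4 per list and comparison), Zbtb16 as a check of the labels and the 2 genes most like each member. The members and lists were chosen with earlier results of these data known.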

Additional observations from a re-analysis of the deposited data

How the results depend on the processing

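The number of genes called depended on the libraries and on the processing, and the cause was not tested. Settings also differed in the number of samples or of genes tested. Leaving out the +/+ libraries of plates 1, 2 and 4 and the lu/lu libraries of plates 3 and 4, in that order, gave 1387, 1, 1, 1 and 6 genes between genotypes over all cells (112 with all libraries). It gave 1965, 1, 1, 1 and 1 among Gfra1-positive cells (11) and 8, 1, 91, 28 and 88 among Gfra1-negative cells (48). By Gfra1 status it gave 13, 34, 4, 40 and 56 in Plzf +/+ (37), 78, 275, 21, 28 and 5 in Plzf lu/lu (40), and 1, 3, 0, 20 and 0 for the difference between genotypes (1). An arm left with 1 library was taken to vary like the others. In the order all cells, positive cells, negative cells, status in Plzf +/+, status in Plzf lu/lu and their difference, no filter on low counts gave 583, 550, 223, 157, 340 and 193 genes. Without clusters of other types the counts were 626, 155, 243, 80, 4 and 0. At 2000 UMIs per cell they were 366, 75, 166, 210, 67 and 1. Without very deep cells they were 671, 401, 50, 212, 99 and 3. DESeq2 gave 139, 74, 17, 17, 41 and 0, and its size factors gave 21 among positive cells. Gfra1 positivity at 2 UMIs gave 52 among positive cells, and 128, 85 and 11 for the status tests. No library block gave 6, 0 and 0 for the status tests.

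Deviations of the libraries from their genotype's mean had correlations of -0.047 to 0.047 over all pairs of libraries, with 0.047 for the plate 4 pair. With 2 lu/lu libraries the deviations of that genotype are exact opposites. The correlations therefore cannot show whether replicate numbers pair the samples. A replicate number joins libraries of different plates. A term for plate 4, the plate both genotypes share, was added after seeing the data and gave 1 gene over all cells, 1 among positive and 191 among negative cells. With it the adjusted p was 0.0655 for Nid1, 0.0771 for Cd63 and 0.112 for Zbtb16 over all cells, no member was called, and Itgb1 over all cells (-0.0048) and Itga6 among positive cells (-0.029) changed sign. With the replicate number as a block 0 genes over all cells, 0 among positive and 361 among negative cells were called. No member was called with this block, nor were Nid1 (adjusted p = 0.464) and Cd63 (0.477) over all cells, and the Epcam value over all cells turned to -0.042.

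Of the members' log2 fold changes under alternatives, 569 kept direction and side of the threshold, 7 came to pass it, 9 no longer passed and 63 changed sign, none of the last a called value. Over all cells Itgb1 turned to -0.013 with DESeq2 size factors, -0.0028 with DESeq2, -0.040 with no filter, -0.13 without other types, -0.54 at 2000 UMIs and -0.14 without deep cells. Epcam turned to -0.0033 with no filter, -0.37 at 2000 UMIs and -0.029 without deep cells. Among positive cells Itga6 turned to -0.46 without other types, -0.18 at 2000 UMIs and -0.36 without deep cells. Epcam turned to 0.11 at 2000 UMIs and 0.077 with Gfra1 at 2 UMIs, and Cdh1 to 0.11 with DESeq2 and 0.14 with Gfra1 at 2 UMIs. Among negative cells Epcam turned to -0.55 at 2000 UMIs. By status in Plzf +/+, Itgb1 turned to 0.44 and Epcam to -0.027 at 2000 UMIs, and Thy1 to 0.43 without other types. In Plzf lu/lu, DESeq2 gave -0.0099 for Itgb1 and -0.058 for Epcam. For the difference of status terms, thinning gave -0.26 for Itgb1, 0.58 for Epcam and -0.14 for Mcam, and Cd9 was -0.042 without other types.

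With each library left out, the genotype values over all cells ran from -0.68 to 0.40 for Itga6, -0.22 to 0.32 for Itgb1, -0.084 to 0.19 for Epcam and -0.79 to 0.20 for Cdh1. Among positive cells they ran from -0.53 to 0.93 for Itga6, -0.11 to 0.16 for Itgb1, -0.030 to 0.84 for Cd9, -0.77 to 0.29 for Epcam, -0.41 to 0.92 for Cdh1 and -0.56 to 0.46 for Tspan8. Among negative cells they ran from -0.50 to 0.34 for Itgb1 and -0.0039 to 0.50 for Epcam. By status in Plzf +/+ they ran from -0.063 to 0.62 for Itga6, -0.46 to 0.036 for Itgb1, -0.0013 to 0.42 for Cd9, -0.021 to 0.35 for Epcam and -0.16 to 1.90 for Cdh1. In Plzf lu/lu they ran from -0.32 to 0.23 for Itgb1, -0.30 to 0.77 for Cd9 and -0.93 to 0.51 for Epcam. The difference of status terms ran from -0.14 to 0.49 for Itgb1, -0.57 to 0.49 for Cd9, -1.19 to 0.25 for Epcam and -0.075 to 6.59 for Cdh1.

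Depth limited Thy1 and Cdh1, with 111 and 85 UMIs in all cells, and the lu/lu library of plate 4, with 38 cells.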
